A study of Mus musculus with 12 samples.

Results

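Cadherins and non-clustered protocadherins are transmembrane adhesion proteins, and their messenger RNAs were measured here in mouse neural stem cells passing from 3 h to 48 h of neural differentiation. The members were all genes whose symbol is Cdh or Pcdh followed by a number alone, which gave 34 of the 54356 genes with transcripts in the tables: 23 cadherins and 11 protocadherins. The clustered protocadherins, whose symbols carry further letters, are outside this set. Of the 34 members, 21 (12 cadherins and 9 protocadherins) had enough reads to be tested and 13 did not, and 18 reached a mean of 5 CPM in at least 1 group, where CPM is a gene's reads per 1000000 of the normalised library size.

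The cells were primary neural stem cells, held in medium with EGF and FGF and then moved to neurobasal medium with B-27 supplement. Wild-type cells and cells of genotype Chd5-/- were taken at 3 h and at 48 h, with 3 libraries in each of the 4 groups and 12 in all. The labels do not say whether the libraries of a group came from separate animals or cultures, so p-values measure the spread between these libraries, which may be technical. All groups received the differentiation medium, and the age and strain of the mice, the deleted part of Chd5 and any undifferentiated control are not given in the labels.

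Classical cadherins bind a partner cadherin on the next cell with their outer domains and bind p120- and beta-catenin with their tails, which ties them to actin. Type I cadherins such as E-, N- and R-cadherin carry strong adhesion, and type II cadherins sort cell groups in the developing brain by which members each group expresses. Delta-protocadherins bind more weakly, do not bind catenins, and in the delta-2 branch recruit the WAVE actin-regulating complex; in neural stem cells N-cadherin is the main cadherin of the apical junctions.

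The libraries held 14113872 to 18708226 estimated reads. The gene named by the genotype, Chd5, was read at 3.54 to 4.66 CPM in wild type and 5.25 to 7.06 CPM in the Chd5-/- libraries at 3 h, and at 5.28 to 7.15 and 2.96 to 5.70 CPM at 48 h. At 3 h the genotypes did not overlap and the Chd5-/- libraries were the higher, against their label, and at 48 h they overlapped. The groups are therefore named by their labels throughout, as Chd5-/- labelled libraries, and directions between genotypes rest on those labels. 3 libraries stood apart from their groups. In wild-type replicate 1 at 3 h, ribosomal protein genes took 15.8% of reads against 4.32% and 4.17% in the other two, and the read-weighted effective transcript length was 1527 bases against 2739 and 2768. In replicate 2 of both genotypes at 48 h, 20 mitosis genes averaged 7.09 (wild type) and 6.90 (labelled Chd5-/-) on the log2(CPM + 1) scale, against 3.28 to 3.38 in the other 4 libraries of that time and 7.02 to 7.79 at 3 h. Results are given over all 12 libraries and over the 9 that remain without these 3. The neural stem and radial glia markers (8 genes) summed to 4170 to 8990 CPM in every group, while those of epithelium (7 genes) reached at most 1.11 CPM and those of microglia and blood cells (6 genes) at most 0.456 CPM. In RNA from a whole culture, fewer cells of a type and less RNA per cell cannot be told apart.

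The promoters of 3 members are shown because Cdh6 and Cdh10 were the members called between genotypes at 3 h and Pcdh10 had a negative difference that was not called. Each is the RefSeq window from 250 bases before to 50 bases after the gene's start, in GRCm38.p6, printed 5' to 3' along the gene's strand with every CG dinucleotide in capitals.
Cdh6 (chr15:13173626-13173925, minus strand): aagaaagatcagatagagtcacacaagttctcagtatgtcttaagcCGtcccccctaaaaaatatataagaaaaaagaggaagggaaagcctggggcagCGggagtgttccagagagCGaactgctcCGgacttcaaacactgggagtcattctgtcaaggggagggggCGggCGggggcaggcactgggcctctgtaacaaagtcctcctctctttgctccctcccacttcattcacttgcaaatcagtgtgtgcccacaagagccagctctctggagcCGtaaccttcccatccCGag
Cdh10 (chr15:18820079-18820378, plus strand): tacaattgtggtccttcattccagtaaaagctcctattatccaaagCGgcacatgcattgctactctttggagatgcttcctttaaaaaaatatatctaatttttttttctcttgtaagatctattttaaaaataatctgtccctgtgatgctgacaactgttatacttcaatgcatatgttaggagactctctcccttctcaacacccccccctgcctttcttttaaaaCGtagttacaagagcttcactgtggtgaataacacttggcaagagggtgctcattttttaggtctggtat
Pcdh10 (chr3:45378148-45378447, plus strand): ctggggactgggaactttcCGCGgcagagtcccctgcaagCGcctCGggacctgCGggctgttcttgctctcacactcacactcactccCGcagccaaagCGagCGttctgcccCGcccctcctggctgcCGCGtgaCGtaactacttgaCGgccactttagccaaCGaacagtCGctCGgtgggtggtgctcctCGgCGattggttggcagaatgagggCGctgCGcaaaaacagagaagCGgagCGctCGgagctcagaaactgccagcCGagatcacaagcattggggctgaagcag
The Cdh6 window holds 8 CG dinucleotides, more than 51.4% of the 32851 RefSeq promoters, the Cdh10 window 2 (more than 14.1%) and the Pcdh10 window 24 (more than 80%). The RefSeq start of Cdh6 is that of its main transcript, and that of Pcdh10 lies 29 bases from it. The Cdh10 window is 1382 bases from the annotated start of Cdh10-202, which took 96.5% of the gene's reads, so it does not cover that start. RefSeq promoters were found for 22 of the 34 members (25 windows), with a median of 14 CG dinucleotides against 7 over all promoters. The E-box CAGGTG (reverse CACCTG), which SNAI and ZEB repressors bind, was in 5 of the 25 windows and in 20.2% of all promoters. 3 of these 5 windows belong to Cdh7, which had no reads, so by gene it was in 3 of 22 (Cdh7, Pcdh7 and Pcdh15). CCAAT (reverse ATTGG) was in 17 of the 25 windows (15 of the 22 genes) and in 37.4% of all promoters. Both motifs were searched on both strands, and neither word contains the other. None of the 3 windows shown holds CAGGTG.

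Per unit of transcript length, N-cadherin (Cdh2) was the highest member in 10 of the 12 libraries. Cdh22 was higher in wild-type replicate 1 at 3 h (7.70 against 5.01 TPM) and Pcdh10 in wild-type replicate 1 at 48 h (60.5 against 52.7 TPM). On the deposited TPM scale, summed per gene, Cdh2 had a median level of 47.97 over the 12 libraries (5.01 to 81.1), followed by Cdh4 (R-cadherin) at 22.55, Pcdh10 at 20.36, Cdh20 at 18.5, Cdh13 (the lipid-anchored T-cadherin) at 13.54, Pcdh9 at 11.54, Pcdh7 at 8.09 and Cdh22 at 7.65. Pcdh18 (6.80), Pcdh1 (5.49), Cdh24 (3.28), Pcdh19 (2.10), Cdh10 (1.98) and Cdh6 (1.55) came next. Cdh2 was above Cdh4 in all 12 libraries and Cdh24 above Pcdh19 in 11. For the other neighbours in this order the first gene was above the next in 6 to 9 of the 12 libraries, so their order differed between libraries. The first 8 of these genes held 70.6% to 87.1% of the summed TPM of the members in every library. That sum was 31.5 TPM in wild-type replicate 1 at 3 h, 151 to 174 in the other 3 h libraries and 212 to 378 at 48 h.

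**Figure D1:**
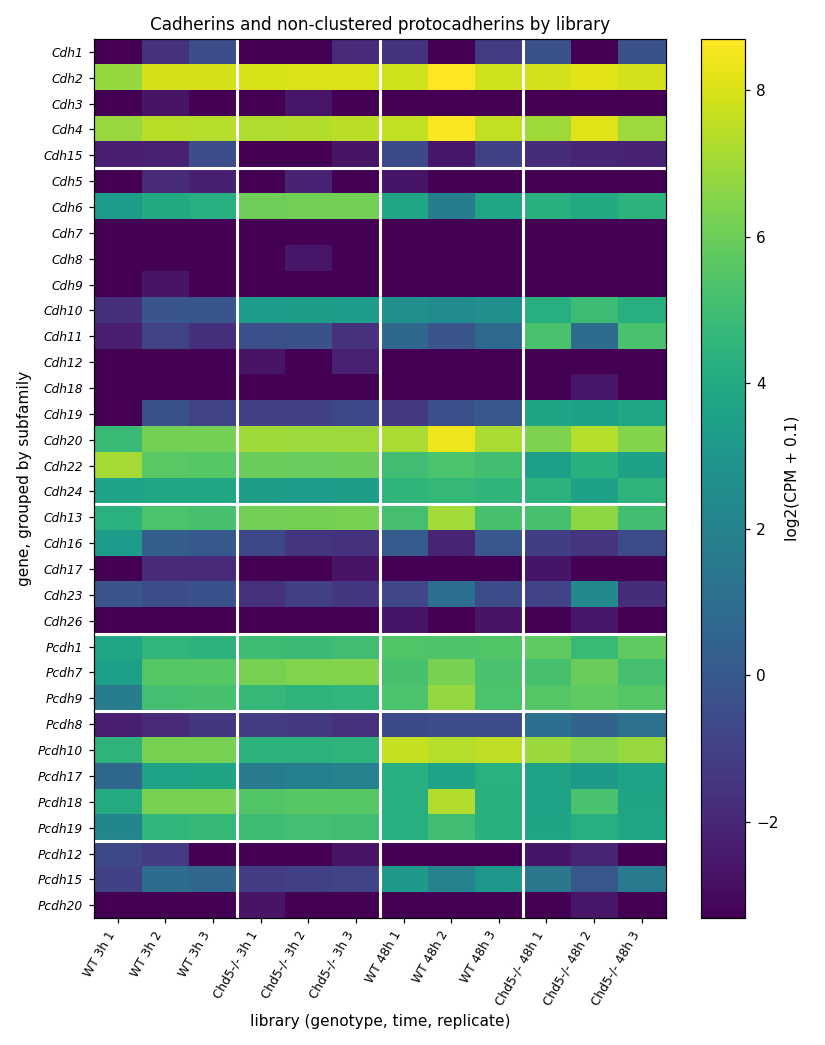
Heat map of all 34 members (rows, grouped from top to bottom as type I, type II and other cadherins, then delta-1, delta-2 and other protocadherins) in the 12 libraries (columns), with colour for log2(CPM + 0.1). The 13 untested genes are the dark rows, none above 0.694 CPM, and Cdh2 and Cdh4 are the brightest rows.

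The 2 type I cadherins with enough reads to be tested, Cdh2 and Cdh4, were not called in any contrast over the 12 libraries. Cdh2 was read at 110, 246 and 246 CPM in wild type and 254, 260 and 259 CPM in the Chd5-/- labelled libraries at 3 h, and at 229, 417 and 226 CPM and 237, 289 and 236 CPM at 48 h. Cdh4 was read at 115, 169 and 164 CPM and 157, 161 and 177 CPM at 3 h, and at 195, 403 and 193 CPM and 127, 275 and 124 CPM at 48 h. The groups overlapped for both genes at both times but for Cdh2 at 3 h, where the wild-type libraries were the lower. The low value in each case was wild-type replicate 1 at 3 h and the high ones were replicate 2 at 48 h.

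Cdh13 was also low in wild-type replicate 1 at 3 h and high in both replicate 2 libraries at 48 h, and the delta-1 protocadherins followed this in part. Cdh13 was read at 20.1, 39.6 and 36.9 CPM in wild type and 71.4, 73.2 and 76.2 CPM in the Chd5-/- labelled libraries at 3 h, and at 36.1, 131 and 36.8 CPM and 36.5, 103 and 33.2 CPM at 48 h. Pcdh7 was read at 10.9, 45.7 and 48.3 CPM and 75.6, 85.5 and 87.4 CPM at 3 h, and at 36.6 to 78.3 CPM and 35.3 to 61.1 CPM at 48 h. At 3 h the groups did not overlap for Cdh13 or Pcdh7, and over 12 libraries neither was called (edgeR adjusted p = 0.234 and 0.169). Pcdh9 was read at 3.34, 35.0 and 37.1 CPM and 25.3, 22.8 and 24.4 CPM at 3 h, and at 38.8, 106 and 38.7 CPM and 46.9, 53.0 and 47.0 CPM at 48 h. Pcdh1, the other delta-1 member, was low in wild-type replicate 1 at 3 h (13.3 against 24.1 and 21.9 CPM), but at 48 h its replicate 2 was 0.959 times the mean of replicates 1 and 3 in wild type and 0.501 times in the Chd5-/- labelled libraries. Pcdh19, the X-linked delta-2 member mutated in an epilepsy of girls, ranged from 4.46 to 34.3 CPM.

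The 13 untested members were at or near 0, with at most 50 reads over all libraries: Cdh1, Cdh3, Cdh5, Cdh7, Cdh8, Cdh9, Cdh12, Cdh15, Cdh17, Cdh18, Cdh26, Pcdh12 and Pcdh20. They include Cdh1 (E-cadherin, of epithelia), which was highest in the set at 0.694 CPM, and Cdh5 (VE-cadherin, of endothelium), at most 0.171 CPM. Cdh7 had 0 reads in all 12 libraries, which allows a level of up to 0.0156 CPM (3 reads over the 12 libraries together, counting error only). By subfamily, tests were possible for 2 of 5 type I, 7 of 13 type II and 3 of 5 other cadherins, and for 3 of 3 delta-1, 5 of 5 delta-2 and 1 of 3 other protocadherins.

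Some of these members lie next to expressed ones on the chromosome. On chromosome 15 the type II genes Cdh6, Cdh9, Cdh10, Cdh12 and Cdh18 follow each other with 0 other coding genes between neighbours, at gaps of 3.56, 1.96, 1.44 and 0.96 Mb. Cdh6 and Cdh10 were expressed, up to 71.6 and 29.9 CPM, and Cdh9, Cdh12 and Cdh18 reached at most 0.0569, 0.114 and 0.0668 CPM. On chromosome 8, Cdh11 (up to 38.0 CPM) lies between Cdh8 and Cdh5, again with 0 coding genes between. On chromosome 1, Cdh19 (up to 13.8 CPM) is 0.75 Mb from Cdh7, the member with 0 reads.

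The first comparison asked which members differed between genotypes 3 h into differentiation. The type II cadherins Cdh6 (K-cadherin) and Cdh10 were higher in the Chd5-/- labelled libraries, and no member was called lower. Of the 21 tested members, 2 were called by edgeR's quasi-likelihood test at an adjusted p under 0.05, where 6.71% of all 16043 tested genes were called. The median log2 difference of the members was 0.14, against -0.02 for all genes. Over the 9 libraries it was 0.07 for the same 21 members and -0.01 for the 23 tested there.

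Markers of other cells differed at 3 h as well, and their part in the result was not tested. The 7 neuron markers summed to 234 to 642 CPM in wild type and 1190 to 1300 CPM in the Chd5-/- labelled libraries, with 2 of the 7 at a mean of 1 CPM or more in each. Most of that sum was Map2, at 114, 476 and 490 CPM and 1090, 1180 and 1210 CPM (edgeR adjusted p = 0.0519), while Tubb3 was 119, 157 and 150 CPM against 98.4, 93.1 and 89.9 CPM. The 6 astrocyte markers summed to 445 to 858 CPM and 575 to 603 CPM. Over 12 libraries edgeR called 0 of them higher and 2 lower, Aqp4 (-3.68 ± 0.67) and Gja1 (-2.58 ± 0.68). Over the 9, where 52.5% of all genes were called, Aldh1l1 (0.57) and Aldoc (0.52) were called higher and 3 astrocyte markers lower. Of the 7 neuron markers tested there, 1 was higher and 2 lower. Of the other marker lists, Otx2 (2.97) was called higher over 12 libraries. Mbp (-2.61), Tek (-3.43), Scn7a (-4.33), Col1a1 (-1.86) and Col3a1 (-5.17) were called lower, all at low levels.

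Cdh10 was read at 0.203, 0.797 and 0.832 CPM in wild type versus 9.95, 10.1 and 9.90 CPM in the Chd5-/- labelled libraries at 3 h. The groups were far apart, and the log2 difference was 3.95 ± 0.42 (SE, edgeR adjusted p = 0.000384, n = 3 each). In reads, wild type held 2, 14 and 15 on Cdh10-202, and the other group 160.0 to 176.7. Cdh6 was read at 9.72, 16.3 and 18.4 CPM in wild type versus 65.5, 70.8 and 71.6 CPM in the Chd5-/- labelled libraries, with no overlap. Its log2 difference was 2.22 ± 0.46 (edgeR adjusted p = 0.0175). The Cdh6 call was lost without replicate 1, 2 or 3 of the Chd5-/- group (adjusted p = 0.0563, 0.0636 and 0.0651), whereas Cdh10 was called with any 1 library left out.

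Pcdh10 (OL-protocadherin, a delta-2 member that binds the WAVE complex) missed the threshold at 3 h. Up to 154 bases of its exons overlap an antisense gene (1700027H10Rik), and since the strand setting of the quantification is not known here, reads there could belong to either. It was read at 22.6, 76.0 and 75.2 CPM in wild type versus 21.7, 21.4 and 22.6 CPM in the Chd5-/- labelled libraries. Replicate 1 of wild type lay at the level of the Chd5-/- libraries and the other 2 stood above them. The log2 difference was -1.40 ± 0.38 (edgeR adjusted p = 0.0509), and -1.78 ± 0.13 (adjusted p = 8.48e-05) without wild-type replicate 1. It also passed with RLE size factors (adjusted p = 0.0388), the filter of 1 CPM in 3 libraries (0.0450), DESeq2 (0.00304) and the effective-length offset (0.0354). Without that library Pcdh17, another delta-2 member, was also called lower, at -1.84 ± 0.24 (adjusted p = 0.00158), and 4 of 23 members in all were called, where 9.78% of all genes were. Pcdh17 was read at 1.52, 12.2 and 12.7 CPM in wild type and 2.96, 3.54 and 3.87 CPM in the other group.

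Over the 9 libraries, 17 of 23 tested members were called at 3 h, 8 higher and 9 lower, where 52.5% of all 16489 tested genes were called. Of the 21 members tested in both fits, 15 were called, 8 higher and 7 lower. Cdh1 and Cdh15 entered the 9-library fit alone and with few reads, Cdh1 with 4 and 11 in wild type against 0, 0 and 3, and Cdh15 with 2 and 11 against 0, 0 and 1, so the libraries where they were higher also let them pass the filter and no fold is read from them. Both calls of the 12-library fit were kept in the same direction, Cdh10 at 3.60 ± 0.14 and Cdh6 at 2.00 ± 0.07. The further members called higher were Cdh13 (0.95), Pcdh7 (0.82), Cdh20 (0.77), Pcdh19 (0.41), Pcdh1 (0.40) and Cdh22 (0.35) on the log2 scale. The other 7 called lower were Pcdh15 (-2.04), Pcdh17 (-1.85), Pcdh10 (-1.78), Cdh16 (-1.59), Pcdh18 (-0.75), Pcdh9 (-0.57) and Cdh24 (-0.38). Cdh22 changed sign, from -0.34 ± 0.39 with all 12 libraries. Wild-type replicate 1 held 138 CPM of it, against 50.2 and 46.8 CPM in the other two and 60.9 to 62.4 CPM in the Chd5-/- labelled libraries. N-cadherin was close between genotypes, at 0.07 ± 0.03 (adjusted p = 0.0608), and R-cadherin at -0.01 ± 0.05 (adjusted p = 0.878).

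**Figure D2:**
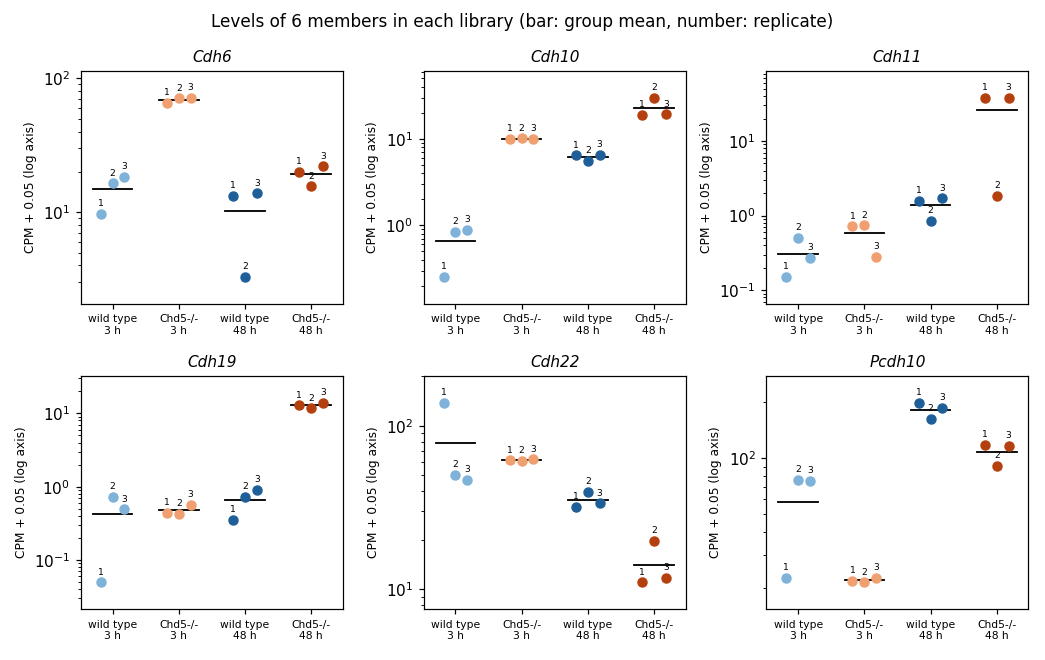
Levels of Cdh6, Cdh10, Cdh11, Cdh19, Cdh22 and Pcdh10 in each library, as CPM + 0.05 on a log axis, with the replicate number above each point and a bar at the group mean. Cdh19 sits between 11.7 and 13.8 CPM in the 3 Chd5-/- labelled libraries at 48 h and below 1 CPM in the other 9, and for Cdh11 replicate 2 falls away from replicates 1 and 3.

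At 48 h the question was which members differed after growth in differentiation medium. The 3 members higher in the Chd5-/- labelled libraries were type II cadherins: Cdh19, known from Schwann cell precursors and glia, Cdh11 (OB-cadherin, known from mesenchyme), and again Cdh10. No member was called lower. That was 3 of 21 members in edgeR's test, against 2.74% of all tested genes, with a median log2 difference of -0.32 for the members (-0.05 over the 9 libraries) and -0.02 for all genes.

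Cdh19 was read at 0.305, 0.674 and 0.852 CPM in wild type and 12.8, 11.7 and 13.8 CPM in the Chd5-/- labelled libraries at 48 h. At 3 h it was at most 0.683 CPM in either genotype, so it was high in 1 of the 4 groups. The log2 difference at 48 h was 4.36 ± 0.67 (edgeR adjusted p = 0.00677), called with any 1 library left out. In reads Cdh19 held 206, 175 and 219 in that group and at most 15 in any other library. It thus passed the filter largely through the group where it was high, and this limit holds for its time and interaction values too. Cdh10 was read at 6.41, 5.53 and 6.53 CPM in wild type and 18.8, 29.9 and 19.2 CPM in the other group, without overlap. Its log2 difference was 1.88 ± 0.36 (adjusted p = 0.0203). That call was lost without wild-type replicate 1 or 3 (adjusted p = 0.0854 and 0.0862) and without Chd5-/- replicate 1, 2 or 3 (0.0536, 0.0567 and 0.0583).

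Cdh11 split the Chd5-/- group. It was read at 1.53, 0.809 and 1.65 CPM in wild type versus 38.0, 1.80 and 38.0 CPM in the Chd5-/- labelled libraries, where replicate 2 is the library with high mitosis genes. The log2 difference was 4.28 ± 0.94 (edgeR adjusted p = 0.0358). In replicates 1 and 3 the reads fell on the coding transcript Cdh11-201 (577.6 and 561.6 reads), and replicate 2 had 27.1 reads on it. The Cdh11 call was lost in limma-voom (adjusted p = 0.22) and without 10 of the 12 libraries in turn. Those were wild-type replicates 2 and 3 at 3 h (0.0502 and 0.0572), Chd5-/- replicates 1, 2 and 3 at 3 h (0.0656, 0.0650 and 0.0567), wild-type replicates 1, 2 and 3 at 48 h (0.139, 0.106 and 0.134), and Chd5-/- replicates 1 and 3 at 48 h (0.116 and 0.122). The 9-library value, which rests on those 2 Chd5-/- libraries and 2 of wild type, was 4.59 ± 0.18.

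Markers of other cells moved at 48 h beside these genes, and their part in the result was not tested. The 7 oligodendrocyte lineage markers summed to 1420 to 2130 CPM in wild type and 1240 to 2090 CPM in the Chd5-/- labelled libraries, 5 of the 7 at a mean of 1 CPM or more in each. The most abundant of them, Olig1 and Olig2, were not higher in the Chd5-/- labelled libraries: Olig1 was 970, 1220 and 945 CPM in wild type against 775, 1220 and 758 CPM, and Olig2 was 443, 828 and 431 CPM against 346, 655 and 334 CPM. The 1 oligodendrocyte marker called by edgeR over 12 libraries was Pdgfra (2.56 ± 0.54, adjusted p = 0.0301), a receptor of oligodendrocyte precursors, which was 8, 4.92 and 8.41 CPM in wild type and 53.9, 21.3 and 50.8 CPM in the other group. Cspg4, also of precursors, was 26.0, 75.3 and 25.4 CPM against 84.5, 186 and 79.7 CPM (adjusted p = 0.152). Sox10, which defines the committed lineage, was near 0 in both, at most 0.0568 and 0.467 CPM. The 6 astrocyte markers summed to 466 to 2370 CPM in wild type and 1310 to 3640 CPM in the Chd5-/- labelled libraries, all 6 at a mean of 1 CPM or more in each. Aqp4, the astrocyte water channel, was 97.2, 26 and 94.6 CPM against 5.51, 4.81 and 5.42 CPM and was called lower (-3.79 ± 0.63, edgeR adjusted p = 0.0098). S100b was 51.1, 6.14 and 50 CPM against 150, 72.6 and 155 CPM, without overlap, and was not called (adjusted p = 0.281). Over the 9 libraries, where 47.2% of all genes were called, 5 astrocyte markers were called higher and 1, Aqp4, lower. Of the oligodendrocyte lineage markers, 3 were higher and 2 lower there. Of the other marker lists, Otx2 (4.47) was called higher and Tek (-4.24) lower over 12 libraries, both at low levels. The 7 neural crest and Schwann cell markers summed to 6.74 to 12.9 CPM in wild type and 13.5 to 15.1 CPM in the Chd5-/- labelled libraries, with Foxd3 and Ngfr at 0 in the latter. The 7 fibroblast and meninges markers summed to 7.51 to 17.7 and 6.25 to 11.6 CPM, with Pdgfrb at 0 in the Chd5-/- labelled libraries.

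With the replicate number as a block within the 48 h libraries, more members passed. This block pairs replicate 2 of one genotype with replicate 2 of the other. It was added after seeing the data, and pairing by number was an assumption. edgeR then called 10 of 20 tested members, 4 higher and 6 lower in the Chd5-/- labelled libraries, where 8.82% of 15085 genes were called. The 4 higher were Cdh19 (4.39 ± 0.32), Cdh11 (3.91 ± 0.70), Cdh10 (1.84 ± 0.24) and Pcdh8 (1.58 ± 0.30), the last with adjusted p = 0.0493. The 6 lower were Pcdh15 (-1.78 ± 0.22), Cdh22 (-1.36 ± 0.16), Cdh20 (-0.84 ± 0.10), Pcdh10 (-0.77 ± 0.09), Pcdh19 (-0.65 ± 0.11) and Cdh4 (-0.61 ± 0.09), with adjusted p from 0.0183 to 0.0417. With the block over all 12 libraries, Cdh11 lost its call (adjusted p = 0.0821) and 2 members were called.

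Pcdh8 (arcadlin) is a delta-2 protocadherin that is induced by neuronal activity. Up to 436 bases of its exons overlap the antisense gene Gm9748, with the same uncertainty. Its reads were few: 0.550, 0.607 and 0.625 CPM in wild type and 1.98, 1.33 and 2.15 CPM in the Chd5-/- labelled libraries at 48 h. In reads Pcdh8 held 32, 20 and 34 in the latter and at most 11 in any other library. It thus passed the filter largely through the group where it was high, and this limit holds for its values over time too. The groups did not overlap, and the log2 difference of 1.60 ± 0.38 missed the threshold over all 12 libraries (edgeR adjusted p = 0.0526). It passed without wild-type replicate 1 at 3 h (adjusted p = 0.0120) and with DESeq2 (0.0368). Without that replicate, which is in neither group of this contrast but shares in the estimate of the spread, Pcdh10 (-0.75 ± 0.12) and Cdh22 (-1.30 ± 0.21) were called lower at 48 h as well, and 6 of 23 members in all, where 8.69% of all genes were called.

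Over the 9 libraries, 15 of 23 tested members were called at 48 h, 7 higher and 8 lower, where 47.2% of all genes were called, and all 3 calls of the 12-library fit were kept. The added members higher in the Chd5-/- labelled libraries were Pcdh8 (1.81), Cdh6 (0.65), Pcdh1 (0.33) and Pcdh9 (0.29) on the log2 scale. The 8 lower were Pcdh15 (-1.60), Cdh22 (-1.52), Cdh20 (-0.74), Pcdh10 (-0.71), Pcdh17 (-0.69), Cdh4 (-0.61), Pcdh18 (-0.57) and Pcdh19 (-0.56). Pcdh9 had been at -0.32 ± 0.66 over 12 libraries, so its sign turned. By subfamily, 4 of 5 delta-2 protocadherins were lower and 1 higher, while 4 of 7 type II cadherins were higher and 2 lower.

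**Figure D3:**
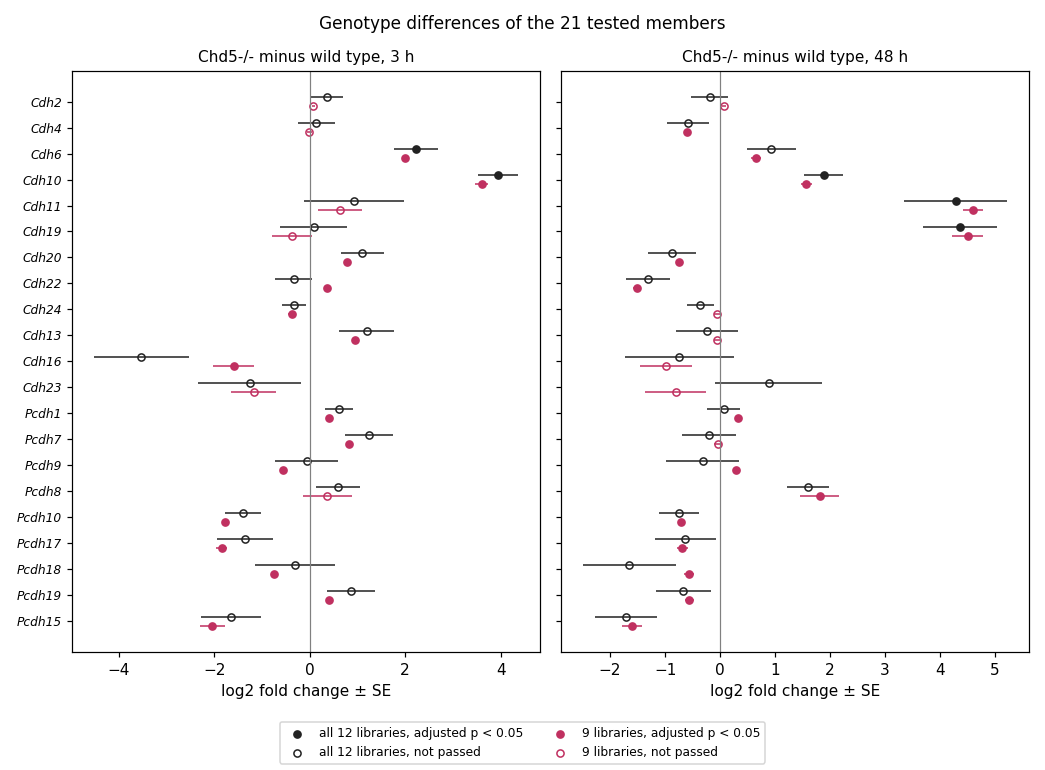
Log2 fold change of Chd5-/- labelled libraries over wild type (x axis, with SE bars) for the 21 tested members at 3 h (left) and 48 h (right), over all 12 libraries (black) and over 9 (red). Filled points passed an adjusted p of 0.05: 2 black points at 3 h (Cdh6 and Cdh10) and 3 at 48 h (Cdh10, Cdh11 and Cdh19), all to the right of 0.

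The change from 3 h to 48 h in wild-type cells showed which members moved as differentiation went on. The 7 members that rose were the type II cadherins Cdh10, Cdh20 and Cdh24, the delta-2 protocadherins Pcdh10 and Pcdh8, the delta-1 protocadherin Pcdh1, and Pcdh15, known from the tip link of hair cells. None fell by edgeR's test. That was 7 of 21 members, where 22.9% of all genes were called, and the median log2 difference was 0.89 for the members and 0.09 for all genes. Of the 21, 18 had positive values and 3 negative; over the 9 libraries the median of 23 members was 0.06, with 13 positive and 10 negative. Without wild-type replicate 1 at 3 h, 7 of 23 were called, where 32.4% of all genes were.

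Pcdh10 went from 22.6, 76.0 and 75.2 CPM at 3 h to 198, 163 and 187 CPM at 48 h, a log2 difference of 1.65 ± 0.38 (edgeR adjusted p = 0.0138). Cdh10 went from at most 0.832 CPM to 5.53 CPM or more, at 3.25 ± 0.41 (adjusted p = 0.00158). Cdh20, a type II cadherin of neural tissue, went from 27.9, 73.9 and 72.0 CPM to 144, 332 and 146 CPM, with no overlap, at 1.84 ± 0.46 (adjusted p = 0.0186). These 3 were called with any 1 library left out.

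Cdh20 was highest in replicate 2 at 48 h, the library with high mitosis genes, and its difference was 0.95 ± 0.04 over the 9 libraries. Pcdh15 went from 0.405, 1.82 and 1.44 CPM to 8.98, 3.98 and 8.52 CPM, at 2.51 ± 0.59 (edgeR adjusted p = 0.0157). Pcdh1 went from 13.3, 24.1 and 21.9 CPM to 43.9, 42.0 and 43.7 CPM, at 1.13 ± 0.30 (adjusted p = 0.0250). Both lost their call without replicate 1 or 3 of wild type at 48 h, Pcdh15 at adjusted p = 0.0568 and 0.0542 and Pcdh1 at 0.0746 and 0.0739.

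Cdh24 was even within groups, at 12.1, 13.6 and 13.3 CPM and then 23.1, 25.8 and 23.2 CPM, and rose by 0.89 ± 0.25 on the log2 scale (edgeR adjusted p = 0.0304). The Cdh24 call was lost with no filter beyond 1 read (adjusted p = 0.0836) and without wild-type replicate 2 or 3 at 3 h (0.0587 and 0.0590), Chd5-/- replicate 1, 2 or 3 at 3 h (0.0537, 0.0532 and 0.0538) or wild-type replicate 1 or 3 at 48 h (0.0793 and 0.0795). Pcdh8 went from 0.101, 0.171 and 0.277 CPM to 0.550, 0.607 and 0.625 CPM, at 1.59 ± 0.44 (adjusted p = 0.0276). Its call was lost with DESeq2 (0.0702), with no filter beyond 1 read (0.0984), and without wild-type replicate 2 at 3 h (0.0759), Chd5-/- replicate 2 at 3 h (0.0501) or wild-type replicate 1 or 3 at 48 h (0.0739 and 0.0870).

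Over the 9 libraries, 16 of 23 members were called in wild type, 10 higher and 6 lower at 48 h, where 76% of all genes were called, and the 7 calls were kept. Besides the 7, Cdh11 (2.16), Pcdh17 (0.62) and Cdh4 (0.17) were higher. The 6 lower were Pcdh18 (-2.06), Cdh22 (-0.61), Cdh6 (-0.41), Pcdh19 (-0.38), Pcdh7 (-0.38) and Cdh2 (-0.16). For Pcdh18, Pcdh19, Pcdh7 and Cdh2 the 12-library values had been above 0 (0.20, 0.41, 0.54 and 0.54) and none had passed the test. Pcdh18 was read at 16.9, 75.8 and 79.2 CPM at 3 h and at 18.5, 159 and 20 CPM at 48 h, so the 2 libraries left out lay outside the rest in opposite directions.

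In the Chd5-/- labelled libraries, 7 members rose from 3 h to 48 h and 2 fell. Those that rose were Cdh11, Cdh19, Pcdh8, Pcdh15, Pcdh10, Cdh10 and Cdh24, and those that fell were Cdh22 (PB-cadherin, of the brain) and Cdh6. This was 9 of 21 members, where 22.1% of all genes were called, with log2 medians of 0.58 for the members and 0.04 for all genes. Over the 9 libraries the median was 0.46 for the same 21 members and 0.81 for the 23 tested there. Cdh10, Cdh24, Pcdh8, Pcdh10 and Pcdh15 rose in both genotypes.

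Cdh11 rose by 5.59 ± 1.02 (edgeR adjusted p = 0.00411) from 0.671, 0.694 and 0.228 CPM, and Cdh19 by 4.87 ± 0.69 (adjusted p = 0.00131) from 0.391, 0.379 and 0.512 CPM. Pcdh10 went from 21.7, 21.4 and 22.6 CPM to 117, 90.9 and 116 CPM, a log2 rise of 2.30 ± 0.39 (adjusted p = 0.00280). Cdh22 went from 61.4, 60.9 and 62.4 CPM to 11, 19.7 and 11.7 CPM, at -2.12 ± 0.41 (adjusted p = 0.00540). These 4, and Pcdh8 at 2.61 ± 0.40 (adjusted p = 0.00189), were called with any 1 library left out. The 48 h libraries lay above all 3 h libraries for Pcdh10 and below them for Cdh22.

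Cdh6 went from 65.5, 70.8 and 71.6 CPM to 20.1, 15.6 and 22 CPM, at -1.85 ± 0.46 (edgeR adjusted p = 0.0164), when wild type at 48 h held 3.24 to 13.8 CPM. The Cdh6 call was lost without Chd5-/- replicate 2 or 3 at 3 h (adjusted p = 0.0521 and 0.0534) or replicate 1 or 3 at 48 h (0.0596 and 0.0514). Pcdh15 rose from 0.335, 0.379 and 0.455 CPM to 2.73, 0.868 and 2.96 CPM, at 2.47 ± 0.63 (adjusted p = 0.0186). The Pcdh15 call was lost without Chd5-/- replicate 1, 2 or 3 at 3 h (0.0794, 0.0732 and 0.0634) or replicate 1 or 3 at 48 h (0.0656 and 0.0714).

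Cdh10 rose by 1.18 ± 0.36 (edgeR adjusted p = 0.0365), from 9.95, 10.1 and 9.90 CPM to 18.8, 29.9 and 19.2 CPM. That call was lost with no filter beyond 1 read (adjusted p = 0.0857) and without Chd5-/- replicate 1, 2 or 3 at 3 h (0.122, 0.118 and 0.122), Chd5-/- replicate 1, 2 or 3 at 48 h (0.0722, 0.0977 and 0.0767) or wild-type replicate 1 or 3 at 48 h (0.0577 and 0.0573). Cdh24 rose by 0.87 ± 0.25 (adjusted p = 0.0322), from 10.6, 9.66 and 10.6 CPM to 21.9, 11.9 and 22.6 CPM. The Cdh24 call was lost with no filter beyond 1 read (0.123) and without Chd5-/- replicate 1, 2 or 3 at 3 h (0.101, 0.122 and 0.0994), wild-type replicate 1 or 3 at 48 h (0.0529 and 0.0527) or Chd5-/- replicate 1 or 3 at 48 h (0.134 and 0.144).

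Without wild-type replicate 1 at 3 h, 12 of 23 members were called in the Chd5-/- labelled libraries, where 43.5% of all genes were called, the added ones being Pcdh17 (1.65 ± 0.22), Pcdh19 (-1.16 ± 0.24) and Pcdh7 (-0.94 ± 0.32). Over the 9 libraries, 20 of 23 members were called, 11 higher and 9 lower at 48 h, where 79% of all genes were called, and the 9 calls were kept. Of the 21 members tested in both fits, 19 were called, 10 higher and 9 lower. The further members called lower were Pcdh18 (-1.88), Pcdh19 (-1.35), Pcdh7 (-1.24), Cdh13 (-1.11), Cdh20 (-0.56), Cdh4 (-0.43) and Cdh2 (-0.16). Those called higher were Pcdh17 (1.78), Pcdh9 (0.92) and Pcdh1 (0.81), and Cdh1, which had 11 reads in each of replicates 1 and 3 at 48 h against 0, 0 and 3 and passed the filter through those libraries, so that no fold is read from it. R-cadherin, Cdh4, had been at 0.09 ± 0.38 over the 12 libraries, so its sign turned.

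**Figure D4:**
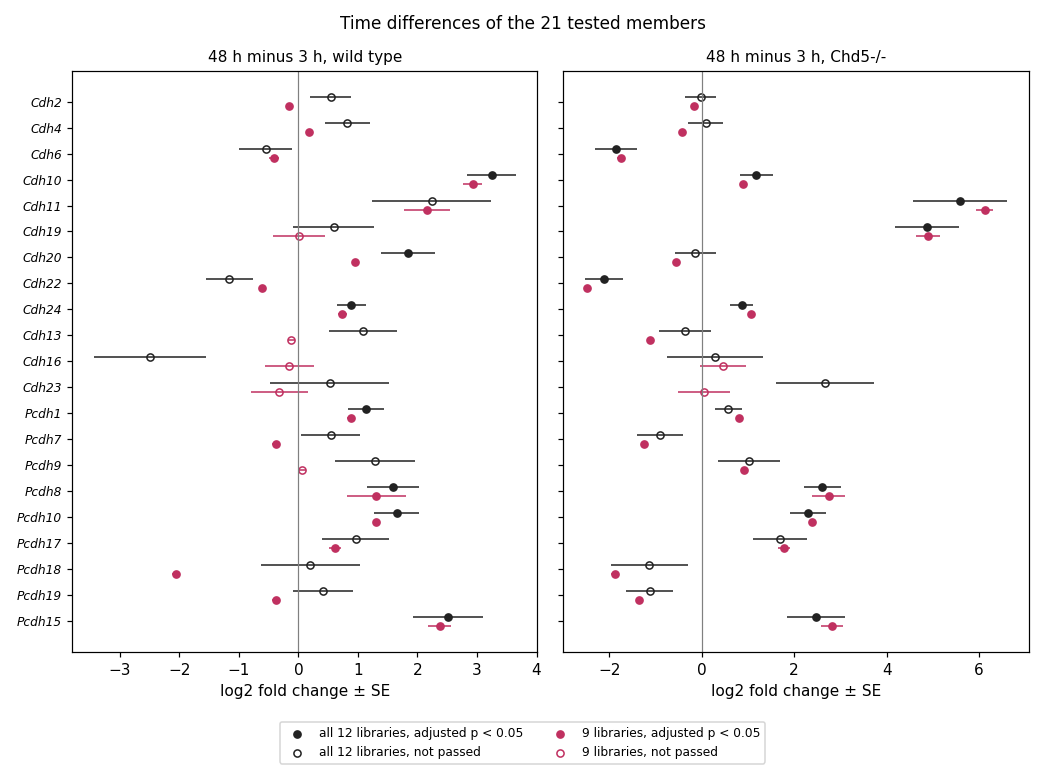
Log2 fold change of 48 h over 3 h (x axis, with SE bars) for the 21 tested members in wild type (left) and in Chd5-/- labelled libraries (right), over all 12 libraries (black) and over 9 (red). Filled points passed an adjusted p of 0.05: 7 black points in wild type, all above 0, and 9 on the right, of which Cdh6 and Cdh22 lie below 0.

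Whether the time course differed between genotypes was tested by the interaction term. edgeR called 0 of 21 members at an adjusted p under 0.05, where 0.231% of all genes were called. At an unadjusted p under 0.05 there were 4 members (Cdh19, Cdh10, Cdh20 and Cdh11), and 1610 of all 16043 tested genes. limma-voom called 0 and DESeq2 called 2, Cdh10 (-2, adjusted p = 0.00281) and Cdh19 (4.37, adjusted p = 9.41e-06). The share of all genes that DESeq2 called is not given here. The median interaction of the members was -0.54 over the 12 libraries. Over the 9 it was 0.18 for the same 21 members and 0.33 for the 23 tested there, so its sign turned. In edgeR the interaction was 4.28 ± 0.95 for Cdh19 (adjusted p = 0.117) and -2.07 ± 0.53 for Cdh10 (adjusted p = 0.169).

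Without wild-type replicate 1 at 3 h edgeR called 4 interactions of 23, where 1.85% of all genes were called: Cdh19 (4.75 ± 0.53, adjusted p = 0.00290), Pcdh10 (1.03 ± 0.18, 0.0221), Cdh10 (-1.72 ± 0.30, 0.0259) and Cdh22 (-1.65 ± 0.32, 0.0386). Over the 9 libraries it called 15 of 23, 7 above and 8 below 0, where 40.4% of all genes were called; of the 21 members tested in both fits, 14 were called, 6 above and 8 below 0. For Cdh20 that value was -1.51 ± 0.05, the genotype difference being 0.77 at 3 h and -0.74 at 48 h. Cdh2 was at 0.00 ± 0.04 (adjusted p = 0.992). Over all 12 libraries, then, a difference of the genotype effects between the times was called for Cdh10 and Cdh19 by DESeq2 and for no member by edgeR or limma-voom. Without the share of all genes called by DESeq2, its calls are not read as particular to the members.

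The 2 libraries at 48 h with high mitosis genes also differed from their group in the members themselves. Pcdh18, a delta-2 protocadherin, was 8.28 times the mean of replicates 1 and 3 in wild type (159 against 19.2 CPM) and 2.91 times in the Chd5-/- labelled libraries (37.5 against 12.9 CPM). Cdh13 was 3.60 and 2.95 times that mean, Cdh20 2.29 and 1.93 times, Cdh4 2.08 and 2.19 times, and Pcdh7 2.09 and 1.70 times. Pcdh15 was lower in replicate 2 of both genotypes, at 0.455 and 0.305 times, as was Cdh6 at 0.239 and 0.740 times. Cdh11 was 0.510 times in wild type and 0.0474 times in the Chd5-/- labelled libraries. Each ratio compares 1 library with 2 others and has no test.

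**Figure D5:**
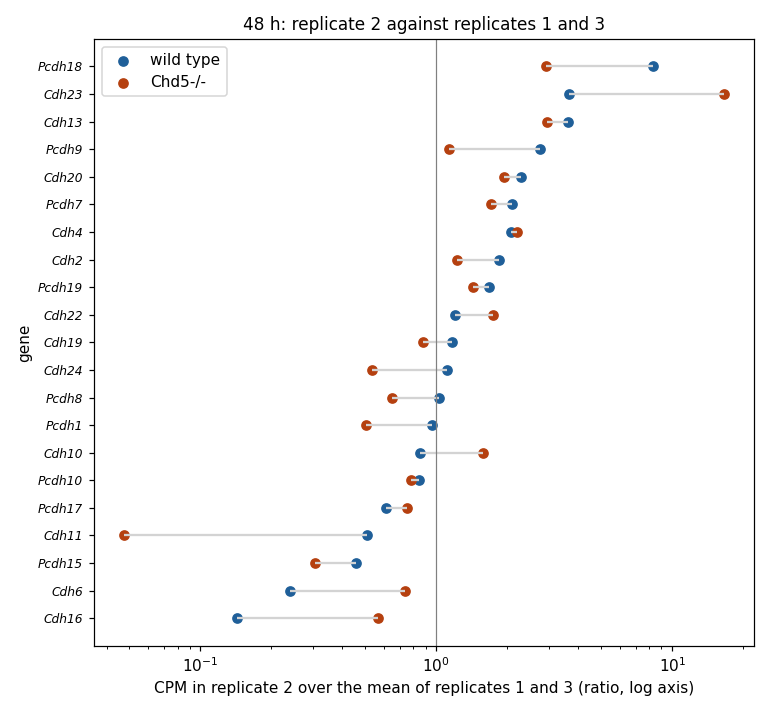
Ratio of CPM in replicate 2 to the mean of replicates 1 and 3 at 48 h (x axis, log scale) for the 21 tested members, in wild type (blue) and in Chd5-/- labelled libraries (orange). Pcdh18 (8.28 and 2.91) and Cdh13 (3.60 and 2.95) lie right of 1 in both genotypes, and Cdh11 in the Chd5-/- labelled libraries lies farthest left at 0.0474.

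Genes that work with the members were counted from lists of the pathway, and their counts stand against the shares of all genes called given above, 6.71% at 3 h and 2.74% at 48 h over 12 libraries and 52.5% and 47.2% over 9. Of 16 tested catenins and junction partners (19 listed), Jup (plakoglobin, which can take the place of beta-catenin) was the 1 called between genotypes over the 12 libraries, lower in the Chd5-/- labelled libraries at both times. At 3 h Jup was 90.8, 78.1 and 75.4 CPM in wild type and 34.4, 32.1 and 38.4 CPM in the other group, at -1.22 ± 0.24 (edgeR adjusted p = 0.0140). At 48 h it was 128, 158 and 120 CPM against 42.4, 67.4 and 38.9 CPM, at -1.45 ± 0.24 (adjusted p = 0.0106). The groups did not overlap at either time. With 9 libraries, 10 genes of this list were called higher and 5 lower at 3 h, and 5 higher and 7 lower at 48 h. Among them were Arvcf, a p120-like catenin, at 2.08 ± 0.09 at 3 h, and Jup at -1.13 ± 0.06 and -1.59 ± 0.07. The 12-library Jup call at 3 h was lost without Chd5-/- replicate 1, 2 or 3 of that time (adjusted p = 0.0794, 0.0861 and 0.0593), and the one at 48 h without Chd5-/- replicate 1 or 3 (0.0656 and 0.0645). Over time 2 genes of the list rose and 1 fell in wild type over 12 libraries, where 22.9% of all genes were called. In the Chd5-/- labelled libraries 1 rose and 1 fell, where 22.1% of all genes were called. Pkp4, a p120-like plakophilin, fell in both (-1.24 and -1.66), a call kept in all 20 alternatives.

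Of 14 tested genes from the wider cadherin superfamily (25 listed), 2 were lower in the Chd5-/- labelled libraries at 3 h and 1 at 48 h, and none was called higher. With 9 libraries 15 were tested, with 4 higher and 6 lower at 3 h and 2 higher and 9 lower at 48 h. Dchs1, the large cadherin that pairs with Fat4, was the 1 at 48 h over 12 libraries. It went in wild type from 25, 37.3 and 37.5 CPM to 183, 179 and 174 CPM, while in the Chd5-/- labelled libraries it went from 24.5, 27.0 and 29.5 CPM to 30.8, 19.8 and 35.3 CPM. So the 48 h groups lay far apart while those of 3 h met, and the 48 h difference was -2.64 ± 0.26 (edgeR adjusted p = 0.000616), kept in all 20 alternatives. The interaction for Dchs1 was -2.34 ± 0.36 (adjusted p = 0.0277). It was lost with the replicate block (adjusted p = 0.0631) and without Chd5-/- replicate 1, 2 or 3 at 3 h (0.103, 0.116 and 0.133), wild-type replicate 2 or 3 at 3 h (0.0736 and 0.0640), or replicate 1 or 3 at 48 h of wild type (0.116 and 0.104) or Chd5-/- (0.109 and 0.0698).

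The 2 genes called at 3 h were Pcdh11x, a delta-1 protocadherin whose symbol falls outside the rule, and Clstn2, a calsyntenin of synapses. Pcdh11x was 2.23, 7.17 and 6.99 CPM in wild type against 1.17, 1.64 and 0.967 CPM, at -2.12 ± 0.45 (edgeR adjusted p = 0.0195). Its call was lost without Chd5-/- replicate 1, 2 or 3 at 3 h (0.0957, 0.0578 and 0.108) or wild-type replicate 2 or 3 (0.0538 and 0.0508). Clstn2 was 0.810, 1.25 and 0.999 CPM against 0, 0.0631 and 0.0569 CPM (adjusted p = 0.0303). With at most 0.694 CPM in any Chd5-/- labelled library, Clstn2 passed the filter largely through the wild-type libraries, where it was higher. Its call was lost with limma-voom (0.0681) and without Chd5-/- replicate 1, 2 or 3 at 3 h (0.125, 0.105 and 0.115), wild-type replicate 2 or 3 at 3 h (0.0606 and 0.0512) or wild-type replicate 3 at 48 h (0.05).

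The 10 genes of the WAVE complex, to which delta-2 protocadherins bind, were all tested, and at 3 h 2 were higher and 1 lower in the Chd5-/- labelled libraries. Cyfip2, which links the complex to Rac, was 2.03, 2.79 and 3.05 CPM in wild type and 33.5, 37.0 and 34.7 CPM in the other group, at 3.73 ± 0.67 (edgeR adjusted p = 0.00839, kept in all 20 alternatives). Wasf3 was higher by 1.67 ± 0.37 (adjusted p = 0.0241), a call lost without Chd5-/- replicate 1, 2 or 3 at 3 h (0.0795, 0.0847 and 0.0849). Abi3 was lower, at -2.61 ± 0.64 (adjusted p = 0.0344). Its call was lost with limma-voom (0.0683), the replicate block (0.0506), and without Chd5-/- replicate 1, 2 or 3 at 3 h (0.111, 0.147 and 0.152), Chd5-/- replicate 1 or 3 at 48 h (0.0564 and 0.0568) or wild-type replicate 1 at 48 h (0.0542). At 48 h edgeR called 0 of the 10 over the 12 libraries. At an unadjusted p under 0.05 there were 2 of them, and 1840 of all 16043 tested genes. With 9 libraries it called 5 higher and 3 lower at 3 h and 6 higher and 2 lower at 48 h, with Cyfip2 at 2.16 ± 0.06 (adjusted p = 3.59e-11) at 48 h.

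Of 7 transcription factors that repress or switch cadherins (the SNAI, ZEB and TWIST families), 3 could be tested, and Twist1 was called over the 12 libraries. Over the 9, 2 were lower at 3 h, and 2 were higher and 1 lower at 48 h. Twist1 was 2.23, 1.77 and 2 CPM in wild type and 0.0559, 0 and 0.0569 CPM in the Chd5-/- labelled libraries at 3 h (edgeR adjusted p = 0.000417), and 0.672, 0.337 and 0.341 CPM against 1.80, 2 and 1.77 CPM at 48 h. The order of the genotypes thus turned between the times, and the interaction passed (adjusted p = 0.00248) in all 20 alternatives as well. However, Twist1 passed the filter largely through the groups where it was high, wild type at 3 h and Chd5-/- labelled at 48 h. This limit holds for its genotype and interaction values. The 48 h call (adjusted p = 0.0349) was lost in 12 of the 20. Those were no filter beyond 1 read (0.0861), the replicate block (0.0507), and leaving out wild-type replicate 2 or 3 at 3 h (0.0628 and 0.0616), Chd5-/- replicate 1 or 3 at 3 h (0.0701 and 0.0704), wild-type replicate 1, 2 or 3 at 48 h (0.0625, 0.0740 and 0.178), or Chd5-/- replicate 1, 2 or 3 at 48 h (0.115, 0.0736 and 0.117).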

How the data were processed

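RNA was extracted with Trizol and made into stranded mRNA libraries, per the labels' protocols. Transcripts were quantified with Salmon, per the submitters' processing notes; the sources used here give neither its version nor its strand setting or transcript set. The estimated counts, TPM values and effective lengths are per transcript, as deposited by the authors from Salmon. Estimated counts were summed per gene over GENCODE M21 transcript identifiers (140137 of 140658 matched) and rounded. edgeR 4.0.16 fitted all 12 libraries with 1 mean per group (TMM, filterByExpr with a minimum count of 10 and a minimum total of 15, quasi-likelihood F test), and 5 contrasts were adjusted by Benjamini-Hochberg over all tested genes, called under 0.05. Each SE is that of the log2 fold change. TPM was used to order genes and to give the members' shares and sums per library, and in no test. The fit was also run on simulated counts. No result of that run is given here, so nothing about how the fit behaves on these libraries is drawn from it.

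Alternatives were a filter of 1 CPM in 3 libraries, a filter of 1 read in all, size factors by RLE, limma-voom (limma 3.58.1), DESeq2 1.42.0, an offset for effective length, a replicate block, each library left out, and 9 libraries. The 9 keep 2 wild-type and 3 Chd5-/- libraries at 3 h and 2 of each at 48 h. A block within 48 h was added after seeing the data. There, same-numbered libraries of the 2 genotypes deviated together (correlations 0.559, 0.736 and 0.562), where same-numbered libraries of other groups reached at most 0.149. However, replicate 1 of wild type correlated more with replicate 3 of the other genotype (0.596). Replicate 3 of wild type likewise correlated more with its replicate 1 (0.584). These values set replicate 2 apart in both genotypes and do not show that replicates 1 and 3 pair by number. Pairing by number within 48 h was therefore an assumption. Like replicates differed by a chi-square per gene of 1.83 to 5.53, so none was taken as a copy of another library. These values do not show that the libraries came from separate animals or cultures.

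Named were every member called in a contrast or reaching a group mean of 5 CPM, Chd5, and up to 4 genes with the smallest p per partner list; other members are given by range. The members, the gene lists and the choice of 9 libraries were made with earlier results of these data known, and the lists' counts are no independent evidence.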

Additional observations from a re-analysis of the deposited data

How the results depend on the processing

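Of 21 gene calls, 10 were kept in every alternative run, and 0 changed sign. With DESeq2, 4 members were called at 3 h (adding Cdh16 and Pcdh10) and 2 for the interaction; over 9 libraries 17, 15, 16, 20 and 15 were called at 3 h, at 48 h, over time in wild type, over time in the Chd5-/- labelled libraries and for the interaction, where the 2 or 3 libraries left per group agree closely and 40.4% to 79% of all genes are called. Over all 12 libraries these counts were 2, 3, 7, 9 and 0. Of the 21 members tested in both, the 9 libraries called 15, 15, 16, 19 and 14. With 1 library left out they ranged from 1 to 4 at 3 h, 1 to 6 at 48 h, 3 to 8 over time in wild type, 5 to 12 over time in the Chd5-/- labelled libraries and 0 to 4 for the interaction. The highest counts at 3 h, at 48 h, over time in the Chd5-/- labelled libraries and for the interaction came without wild-type replicate 1 at 3 h. In that fit 9.78%, 8.69%, 43.5% and 1.85% of all genes were called in the same order. For DESeq2, no filter beyond 1 read, the block over all libraries and the other fits with 1 library left out, the share of all genes is not given here. Changes in those counts are therefore not read as particular to the members. Values that neither fit called and that changed sign from 12 to 9 libraries were Cdh4 (0.14 to -0.01) and Cdh19 (0.08 to -0.38) at 3 h, Cdh2 (-0.19 to 0.07) and Cdh23 (0.88 to -0.81) at 48 h, Cdh13 (1.08 to -0.12) and Cdh23 (0.53 to -0.32) over time in wild type, and Pcdh15 (-0.04 to 0.44) and Pcdh18 (-1.33 to 0.18) for the interaction. With no filter beyond 1 read, 5 were called over time in wild type and 7 in the Chd5-/- labelled libraries.

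With the replicate block over all libraries 2, 2, 7, 9 and 0 members were called in the same order, and with the block within 48 h 10 were called at 48 h. With the block over all libraries, Cdh11 at 48 h was the 1 call lost. Depth limits the members under 1 CPM, where each library holds few reads, and the cause of each lost call was not tested.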

Other observations

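Some members with few reads had them on a part of the gene. Cdh16 (the kidney cadherin) had 93.8% or more of its reads on the 586-base transcript Cdh16-206 in every library, with 96.7 reads in wild-type replicate 1 at 3 h and 2 to 20 in the other 11, so its level of 9.82 CPM in that library is not a level of the full-length transcript. Cdh11 at 3 h had its few reads on the retained-intron transcript Cdh11-202 in 4 of 6 libraries (4.1 to 12.4 reads), while at 48 h they lay mainly on the coding Cdh11-201. The share of Cdh11 reads that is coding transcript was not tested.

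Cdh23, which pairs with Pcdh15 in the tip link of hair cells, reached 2.02 CPM (wild type) and 5.14 CPM (labelled Chd5-/-) in replicate 2 at 48 h, against 0.189 to 0.625 CPM in the other 4 libraries of that time. Pcdh15 was lower in the same 2 libraries, at 3.98 CPM against 8.98 and 8.52 CPM in wild type and 0.868 CPM against 2.73 and 2.96 CPM in the Chd5-/- labelled libraries. Up to 2235 bases of Pcdh7 exons overlap 4932441J04Rik on the opposite strand, and 57 bases of Pcdh19 exons overlap Gm26851, so reads there could belong to either gene.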
